A study of Canis lupus familiaris with 16 samples.

Results

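Of the 41818 genes in the count table, 10 were examined across canine soft tissue sarcomas because their levels were high in fibrosarcoma (FS). They are *SALL1*, *POU6F1*, *CDK2AP1*, *MAST2*, *MTCL1*, *STK39*, *GALNT5*, *NDNF*, *CADM1* and *S1PR3*. They were chosen on their counts scaled to 1000000 per tumor (CPM) in the 4 FS against the other 12 tumors of the same table, so that contrast is described here without a test. In 8 of the 10 every FS was above every other tumor, while *NDNF* and *S1PR3* overlapped with tumors of other types. The genes were not restricted to FS, since 7 of these 8 had counts in all 12 other tumors and only *SALL1* was nearly absent there.

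For 16 archived canine tumors, fixed in formalin and embedded in paraffin, RNA was sequenced and reads were counted per gene. The groups used were the molecular identities in the labels, with 4 FS (S1-02, S1-11, S1-12 and S2-06; dogs of 9 to 13 years), 6 peripheral nerve sheath tumors (PNST; 8 to 13 years) and 6 perivascular wall tumors (PWT; 2 to 14 years). Histology and molecular identity differed for S2-08, an FS by histology in the PWT group, and for S1-10, a PWT by histology in the PNST group, and both identities had been set from gene expression. No treatment is given in the labels, and no normal tissue was analysed here. Breed, site, size and age were the same in the labels of the PNST S1-04 and S1-05, so these may be tumors of 1 dog.

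Between 507728 (S1-12, an FS) and 4311876 counts fell on genes per tumor, and 1 count was worth 0.281 to 1.81 CPM. The 10 fibroblast markers summed to 20658 to 102379 CPM in FS, to 19350 to 39295 in PNST and to 10053 to 24274 in PWT, so the groups overlapped. The highest sum was that of S1-11, which also held 2141 CPM of 10 skeletal muscle markers, against 14.4 to 27.7 in the other FS. Keratinocyte markers summed to over 1000 CPM in 2 FS (S1-02 and S1-12), 2 PNST (S1-04 and S1-05) and 1 PWT (S2-03), and to at most 117 CPM in the other 11 tumors. In pieces of whole tumor, fewer cells of a type and less RNA per cell cannot be told apart.

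Fibrosarcomas are malignant tumors of fibroblasts, the cells that make the collagen of connective tissue. The genes examined act at several levels of a cell. SALL1 and POU6F1 bind DNA, CDK2AP1 is a subunit of the NuRD complex, which remodels and deacetylates chromatin and is recruited by SALL1, MAST2, MTCL1 and STK39 act in the cytoplasm on microtubules and on ion transport, and GALNT5, NDNF, CADM1 and S1PR3 work in the secretory pathway or at the cell surface. SALL1 is best known from kidney and limb development, and POU6F1 from the nervous system.

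*SALL1*, a zinc finger repressor of transcription, was at 9.83 CPM in S1-02, 25.3 in S1-11, 21.7 in S1-12 and 10.7 in S2-06, from 12 to 47 counts per tumor. In the other 12 tumors it had 4 counts in all, 1 each in S1-09, S2-07, S2-09 and S2-11, with a median of 0 and a highest level of 0.807 CPM. The lowest FS thus lay 12.2 times above the highest other tumor, and levels of 0.844 to 4.13 CPM are what a count of 0 still allows in the 8 tumors without a count. The ratio of pooled counts, each scaled by its total, was 96.3, with an exact 95% interval of 36.6 to 359.7 that covers counting error only.

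*POU6F1*, a POU domain transcription factor, was at 32.7 CPM in S1-02, 49.1 in S1-11, 57.8 in S1-12 and 31.1 in S2-06. The 6 PNST lay between 3.58 and 10.8 CPM (median 6.97) and the 6 PWT between 0.739 and 10.2 (median 3.37). Every FS was at least 2.87 times above the highest other tumor, S1-04.

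*CDK2AP1*, which binds the cell cycle kinase CDK2 besides its place in NuRD, had the smallest SD of log2 CPM among FS. It was at 46.4 CPM in S1-02, 56.6 in S1-11, 50.5 in S1-12 and 33.4 in S2-06. PNST ranged from 2.68 to 9.20 CPM (median 4.28) and PWT from 1.38 to 12.7 (median 3.91), and the highest of them, S2-03, stayed 2.64 times below the lowest FS.

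*MAST2*, a serine/threonine kinase associated with microtubules, was at 48.8 CPM in S1-02, 80.3 in S1-11, 45.1 in S1-12 and 87.8 in S2-06. It was also present in all other tumors, at 10.8 to 16.6 CPM in PNST (median 13.2) and 6.88 to 11.3 in PWT (median 9.54). FS and other tumors were separated by a factor of 2.72.

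*MTCL1*, which crosslinks microtubules, was at 63.6 CPM in S1-02, 64.2 in S1-11 and 72.5 in S2-06, but at 25.3 in S1-12, from 14 counts. PNST ranged from 4.42 to 16.1 CPM (median 6.85) and PWT from 1.48 to 7.91 (median 4.04). The margin over the highest other tumor, S1-05, was therefore only 1.57 and was set by S1-12, the tumor with the fewest counts.

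*STK39*, the kinase SPAK that WNK kinases switch on and that phosphorylates chloride cotransporters, was at 43.2 CPM in S1-02, 31.8 in S1-11, 41.5 in S1-12 and 56.7 in S2-06. PNST lay between 3.95 and 10.2 CPM (median 6.81). PWT spread more widely, from 0.539 in S2-08 to 14.6 in S2-03 (median 4.68), and no tumor of either type reached the FS.

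*GALNT5*, one of the enzymes that start mucin-type O-glycosylation, was at 108 CPM in S1-02, 70.6 in S1-11, 81.2 in S1-12 and 64.1 in S2-06. PNST ranged from 6.10 to 22.2 CPM (median 17.3) and PWT from 1.48 to 11.3 (median 7.29). The lowest FS was 2.88 times above the highest other tumor, S1-03.

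*CADM1*, a cell adhesion molecule of the immunoglobulin superfamily, fell into a pair of higher and a pair of lower FS, with 80.8 CPM in S1-02 and 93.9 in S1-12 against 42.1 in S1-11 and 42.7 in S2-06. PNST ranged from 5.74 to 22.5 CPM (median 12.8) and PWT from 3.69 to 10.7 (median 6.26). The lower pair was still 1.87 times above S1-03, the highest other tumor.

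*NDNF*, a secreted neurotrophic factor, was at 37.7 CPM in S1-11, 41.5 in S1-12 and 76.7 in S2-06, but at 1.76 CPM, or 5 counts, in S1-02. It had 0 counts in 7 of the other 12 tumors, where up to 0.895 to 4.13 CPM could go uncounted, and at most 1.98 CPM, also 5 counts, in S2-03. *NDNF* was thus high in 3 FS, and S1-02 lay among the other tumors.

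*S1PR3*, a G protein-coupled receptor for sphingosine-1-phosphate, was at 52.8 CPM in S1-11, 175 in S1-12 and 31.1 in S2-06, and at 5.27 CPM (15 counts) in S1-02. PNST were at 0.359 to 2.53 CPM (median 1.66), and PWT at 0 to 1.98 apart from S2-04, which reached 12.4 CPM from 9 counts. S1-02 was above 11 of the other 12 tumors and below S2-04, so here too the FS were not all set apart.

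**Figure D1:**
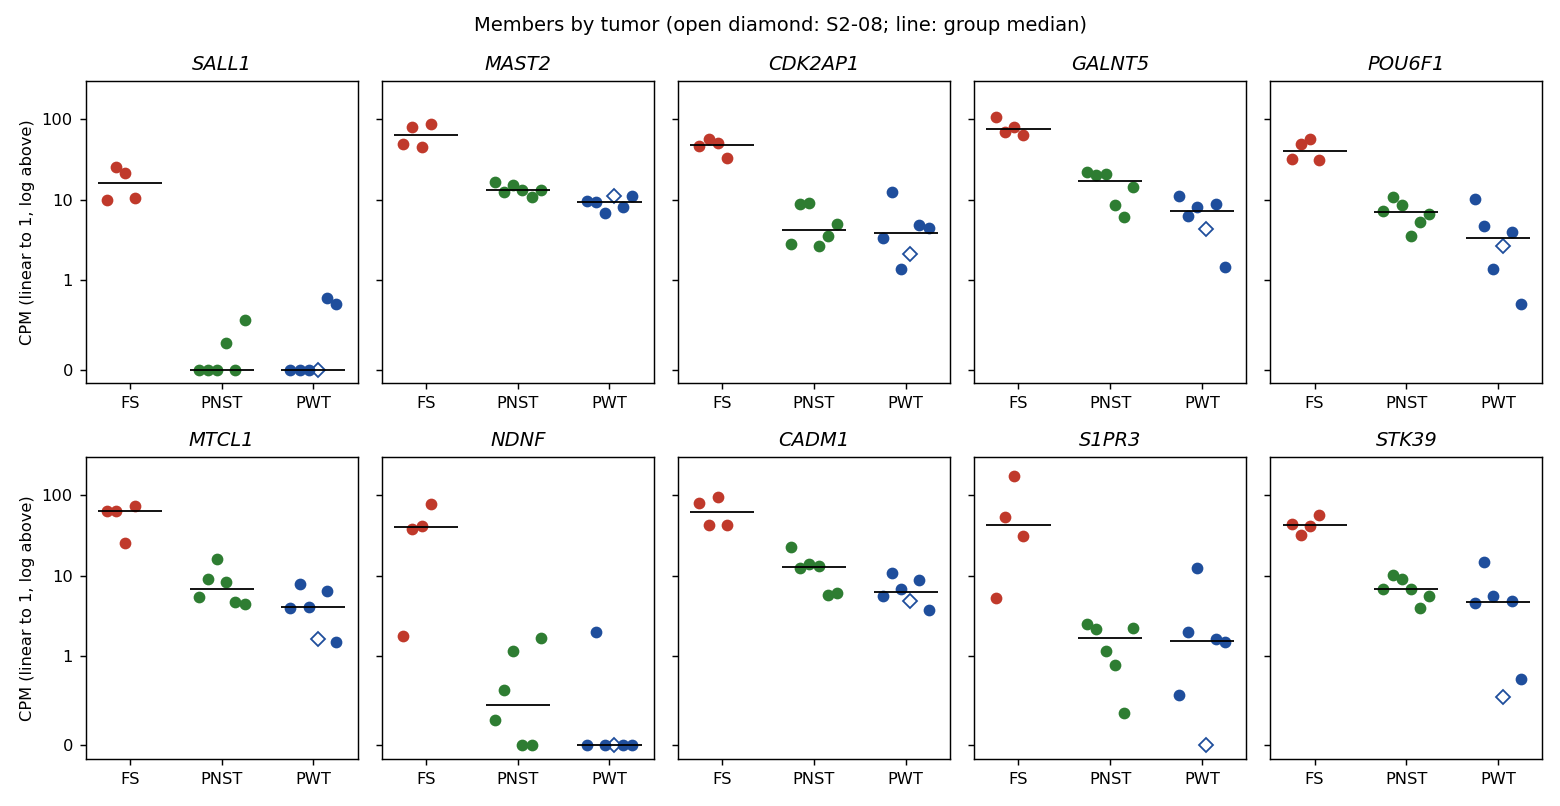
CPM of each of the 10 genes (y axis, linear up to 1 CPM and logarithmic above) in the 4 FS, 6 PNST and 6 PWT; each point is 1 tumor, the line is the group median and the open diamond is S2-08. In 8 genes every FS lies above all other tumors, and in *NDNF* and *S1PR3* 1 FS, S1-02, drops into their range.

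In all, 38 of the 40 FS values were above every other tumor. All 4 FS were above all 12 others in 8 of the 10 genes, as in 1.53% of the 15408 genes that reached 10 counts in 4 or more tumors, and by a factor of 2 or more in 6 of the 10, as in 0.104% of those genes. Since this contrast chose the 10 genes, nothing is read from these shares. Without S1-02 the number of genes set apart was 10 of 10. It was also 10 of 10 among the tumors with the prefix S1 (3 FS and 6 others) and among those with the prefix S2 (1 FS and 6 others), a prefix that may mark a sequencing group. For the 8 genes set apart over all tumors this was fixed in advance, and only *NDNF* and *S1PR3* could come out otherwise.

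On the scale of edgeR's fitted log2 fold changes of FS against the other 12 tumors, *SALL1* differed by 6.25 (SE 0.60) and *S1PR3* by 5.06 (SE 0.67). The other genes tested lay between 2.50 (SE 0.22) for *MAST2* and 3.19 (SE 0.38) for *MTCL1*. *NDNF* had 10 counts in only 3 tumors and was left out by the count filter, and without that filter its log2 fold change was 6.09 (SE 0.68). *SALL1* and *NDNF* were near 0 in the other tumors, so the size of their fitted values depends on the count that the fit adds to each library.

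Tumors with keratinocyte transcripts were present on both sides of the contrast, and all 10 genes were compared within each kind. Among the 11 tumors under 1000 CPM of these markers, both FS were above all 9 others in 10 of 10 genes. Among the 5 tumors over it, both FS were above the 3 others in 9 of 10, the exception being *NDNF*. For the 8 genes in which all FS were above all other tumors, these results were fixed in advance. Only *NDNF* and *S1PR3* could come out otherwise. Without the 5 tumors, a setting chosen after seeing the data, the log2 fold changes of the 7 genes that could be tested were 2.30 to 3.93, and without S1-11 they were 2.38 to 3.12.

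Proliferation genes moved with FS as well. The summed level of 14 proliferation markers was 249 to 1450 CPM in FS, 132 to 175 in PNST and 162 to 318 in PWT, and 9 of the 14 were higher in FS (edgeR, adjusted p under 0.05 and absolute log2 fold change above 1). Of the other markers, 3 of 10 for fibroblasts (*COL1A1*, *COL3A1* and *LUM*), 3 of 10 for pericytes and smooth muscle (*MCAM*, *ACTA2* and *CNN1*), *C1QB* for macrophages and *MYH7* and *NEB* for skeletal muscle were higher. Of all genes tested, 5.78% were higher in FS. Both muscle genes were carried by S1-11, with *NEB* at 1103 CPM there and 5.42 to 22.8 in the other FS and *MYH7* at 125 and 2.32 to 3.61. *LUM*, *ACTA2*, *CNN1* and *C1QB* were above every other tumor in 2 FS, and *MCAM* in 3. *COL1A1* and *COL3A1* were above every other tumor only in S1-11, at 40621 and 35785 CPM. The other FS were at 5530 to 10796 CPM of *COL1A1* and 4488 to 6702 of *COL3A1*. Other fibroblast markers had negative log2 fold changes that did not pass, as *DCN* (-1.38), *FAP* (-1.11) and *PDGFRA* (-0.89; adjusted p = 0.107 to 0.149 from edgeR). The part of these cells in the levels of the 10 genes was not tested.

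The SD of log2 CPM among the 4 FS ranged from 0.32 for *CDK2AP1* to 2.05 for *S1PR3* and 2.28 for *NDNF*. Its median over the 10 genes was 0.543, beside 0.973 over the 890 genes called higher in FS and 0.711 over all genes tested. A choice of genes by high levels in the 4 FS favors those with a small spread there, so nothing is read from this difference. Among the other 12 tumors the same 10 genes had a median SD of 0.895. In 8 genes the highest FS was under 3 times the lowest, and the ratio was 33.2 for *S1PR3* and 43.7 for *NDNF*, both lowest in S1-02.

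The 4 FS were not ranked alike by the 10 genes. Of 24 possible orders 9 were seen, and only *MAST2* and *MTCL1* shared one. S2-06, the FS of grade 3, was highest in 4 genes (*MAST2*, *MTCL1*, *NDNF* and *STK39*) and lowest in 3 (*CDK2AP1*, *GALNT5* and *POU6F1*). S1-12 was highest in 3 and lowest in 2, S1-11 highest in 2 and lowest in 2, and S1-02 highest in 1 (*GALNT5*) and lowest in 3.

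**Figure D2:**
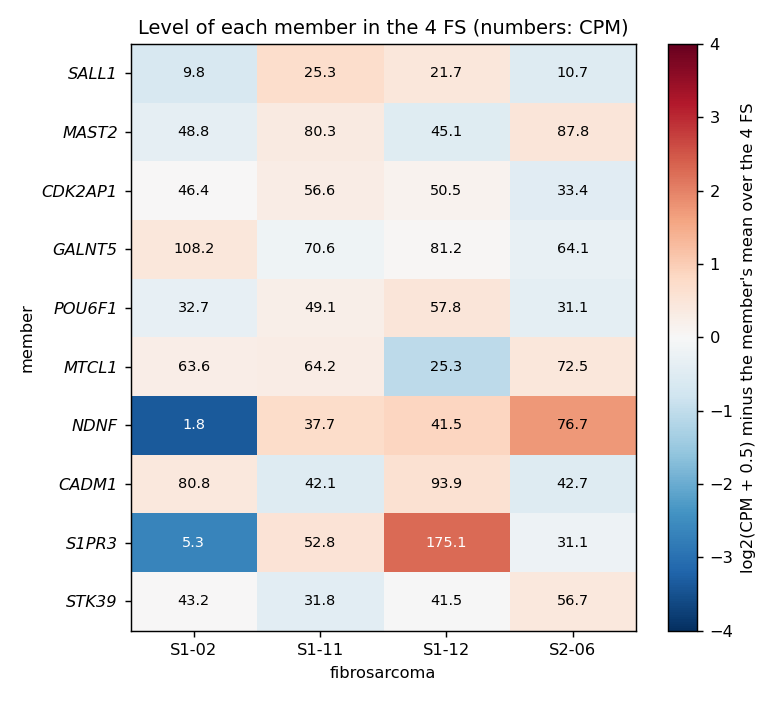
Level of each gene (rows) in each FS (columns); the number is CPM and the color is log2(CPM + 0.5) minus the mean of that gene over the 4 FS. The 2 darkest blue cells are *NDNF* and *S1PR3* in S1-02, and no column is the highest throughout.

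Of each of the 3 FS named with S1, 3 sequencing runs were counted, which gives a measure of the technical spread. The SD between runs came from single runs and that between tumors from summed runs, so they differ in depth. For *S1PR3* the SD between these tumors was 4.60 times that between runs of a tumor, with 1.95 to 7.98 CPM over the runs of S1-02 and 158 to 206 over those of S1-12. The ratio was 2.32 for *NDNF* and 2.03 for *GALNT5*. For *MAST2* and *CDK2AP1* the SD between runs (0.63 and 0.33) exceeded that between the tumors (0.45 and 0.14), although some of the order held in every run. All runs of S1-11 were above all runs of S1-02 in both genes, and above all runs of S1-12 in *MAST2*, while the runs of S1-02 and S1-12 overlapped. The runs share 1 tumor and its RNA and are no replicates of FS.

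S2-08, the tumor called FS by histology, was below the lowest FS in 10 of 10 genes. It had 0 counts of *SALL1*, *NDNF* and *S1PR3* and 1 count of *STK39* (0.539 CPM), the lowest or tied lowest level of the 12 tumors in these 4 genes. In *MAST2*, at 11.3 CPM, it was the highest PWT. In 7 genes it was below the median of the 12. With S2-08 counted as FS, 0 of 10 genes had all FS above all other tumors. The molecular identity of S2-08 was itself set from expression, so this placement is no independent check of it.

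Among the 12 tumors that are not FS, PNST and PWT were compared as a contrast that had not been used to choose the genes. *SALL1*, *NDNF* and *S1PR3* reached 10 counts in 0 of these 12 tumors, too few to be compared here. With edgeR's quasi-likelihood test, 0 of the other 7 genes passed the threshold, beside 0.0714% of all genes higher and 0.0974% lower in PNST. DESeq2 also called 0 of these genes, with a smallest adjusted p of 0.0537, for *GALNT5*. *GALNT5* was at 15.5 ± 6.88 CPM in PNST and 6.76 ± 3.50 in PWT (SD, n = 6 each), a log2 fold change of 1.20 (SE 0.39, unadjusted p = 0.00692, adjusted p = 0.125 from edgeR). *CADM1* followed with 0.85 (SE 0.37, adjusted p = 0.219 from edgeR) and *MAST2* with 0.51 (SE 0.23, adjusted p = 0.231 from edgeR).

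These 3 genes had an unadjusted p under 0.05, as did 19.6% of all genes tested. The log2 fold changes of the other 4 were 0.85 (SE 0.44) for *MTCL1*, 0.74 (SE 0.44) for *POU6F1*, 0.40 (SE 0.51) for *STK39* and 0.03 (SE 0.47) for *CDK2AP1*. The sign of *CDK2AP1* turned negative without S1-04. Type and prefix were unevenly crossed, since 5 of 6 PNST had the prefix S1 and 5 of 6 PWT the prefix S2.

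Co-variation of the genes was measured over the same 12 tumors, in which the difference from FS plays no part. Of 45 pairs, 8 had an adjusted permutation p under 0.05 for Pearson's r of log2(CPM + 0.5), and all 8 were positive. They joined 5 genes with roles at the membrane, in the cytoskeleton, in the secretory pathway and on DNA (*GALNT5*, *POU6F1*, *MTCL1*, *CADM1* and *STK39*) and, apart from these, *CDK2AP1* with *NDNF*. The microtubule gene *MTCL1* and the kinase *STK39* were the closest pair (r = 0.886, permutation p = 0.00032, adjusted p = 0.0144; Spearman's rho = 0.846, adjusted permutation p = 0.0214).

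*GALNT5* and *POU6F1* followed with r = 0.823 (adjusted permutation p = 0.0229) and rho = 0.783 (adjusted permutation p = 0.0430), and *MTCL1* and *CADM1* with r = 0.761 (adjusted permutation p = 0.0431) and rho = 0.860 (adjusted permutation p = 0.0214). *CADM1* and *STK39* had r = 0.726 (adjusted permutation p = 0.0431) and rho = 0.825 (adjusted permutation p = 0.0232). These 4 pairs passed with either coefficient. *GALNT5* with *CADM1* (r = 0.745, rho = 0.734), with *MTCL1* (r = 0.730, rho = 0.580) and with *STK39* (r = 0.719, rho = 0.587), and *CDK2AP1* with *NDNF* (r = 0.759, rho = 0.749), passed for Pearson's r alone. *NDNF* had at most 5 counts in these tumors, so little weight is put on its pair. Only 21 of the 45 pairs joined genes with a median of 3 counts or more, and no pair of *SALL1* was among them.

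**Figure D3:**
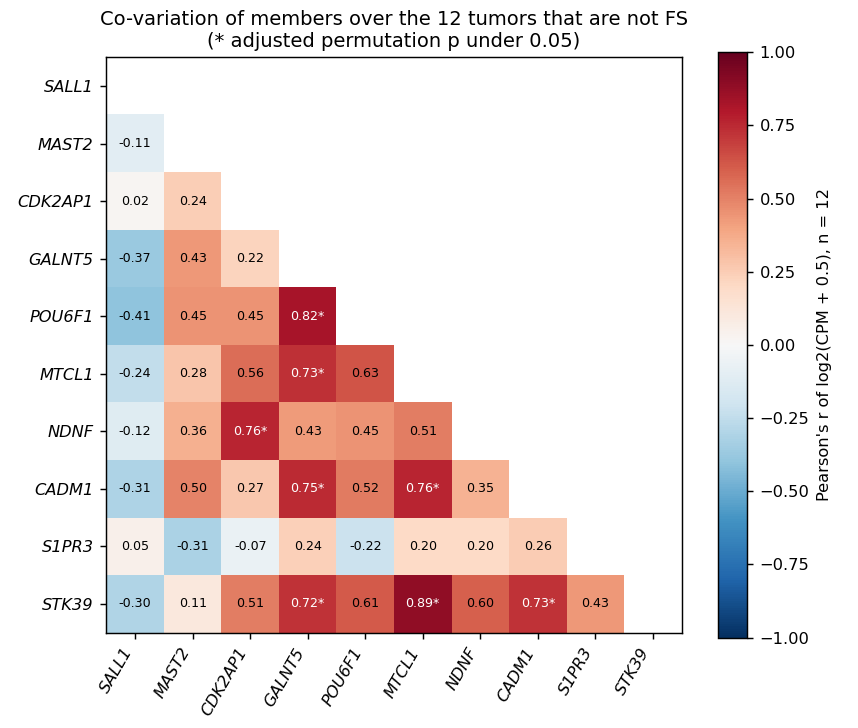
Pearson's r of log2(CPM + 0.5) for each pair of the 10 genes over the 6 PNST and 6 PWT (n = 12), with color from -1 to 1 and a star where the adjusted permutation p is under 0.05. The starred cells lie among *GALNT5*, *POU6F1*, *MTCL1*, *CADM1* and *STK39* and in the cell of *CDK2AP1* and *NDNF*, and *SALL1*, with 4 counts in these tumors, could show none.

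In all 8 pairs r was above 0 within the 6 tumors of prefix S1 and within the 6 of prefix S2, and it was at least 0.531 without the 2 tumors farthest from the median on the x axis. Most of the calls for Pearson's r were lost in the following settings, however. With the means of PNST and PWT removed, or with S1-04 and S1-05 summed as 1 sample, 1 of the 8 pairs kept its call for Pearson's r in each case, with r of 0.602 to 0.863 and of 0.695 to 0.920 over the 8 pairs. With S1-04 and S1-05 summed, 3 pairs passed for Spearman's rho. Without S1-04, S1-05 and S2-03, the 3 tumors of the 12 with over 1000 CPM of keratinocyte markers, 0 of 45 pairs passed by an exact permutation test over 9 tumors, where *MTCL1* and *STK39* had r = 0.925 (exact permutation p = 0.00342, adjusted p = 0.127).

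The 3 tumors with keratinocyte transcripts held the highest level of the 12 in 5 of the 10 genes and the 3 highest levels in *CDK2AP1* and *STK39*. *CDK2AP1* was at 8.99 CPM in S1-04, 9.20 in S1-05 and 12.7 in S2-03, against 1.38 to 4.97 in the other 9 tumors. *STK39* was at 10.2, 9.20 and 14.6 CPM in the same tumors, against 0.539 to 6.86. *SALL1* had 0 counts in all 3. The part of keratinocytes in these levels was not tested.

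The genes known to work with each of the 10 were taken from 12 lists. Of the 156 listed genes in the table besides the 10, 102 could be tested with edgeR in FS against the other 12 tumors. Higher in FS were 11 (10.8%), beside 5.78% of all genes tested, and lower were 4 (3.92%), beside 3.68%, with a median log2 fold change of 0.12 beside 0.0039 over all genes tested. Without S1-11 the number higher was 4 (*CCNA2*, *MARK1*, *PVR* and *MPP6*), and *PARD6B* and *GALNT15* were no longer called lower.

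Several calls of these genes were lost when 1 tumor was left out. A gene at the limit of the count filter, such as *GALNT7*, is then no longer tested. *CDK2*, with a log2 fold change of 1.02, lay next to the threshold of 1. In *GALNT7* and *CDK2* all 4 FS were above all other tumors, so a lost call does not mean that 1 tumor carried the difference. The calls of *GALNT7*, *PVR* and *PARD6B* were lost without S1-02, those of *SALL2*, *SOGA1* and *PARD6B* without S1-12, and those of *CCNA2*, *CDC25A*, *CDK2* and *GALNT7* without S2-06. Among the other tumors, the call of *CDC25A* was lost without S1-03 or S1-04, that of *CDK2* without S1-10, S2-03, S2-07 or S2-08, and that of *GALNT7* without S2-03. The calls of *MARK1*, *MPP6*, *MAST1* and *SLC12A5* were kept with any 1 of the 16 tumors left out.

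In the SALL family, *SALL2* rose with a log2 fold change of 1.78 (SE 0.49, adjusted p = 0.0243 from edgeR), at 8.36 to 49.1 CPM in FS and up to 14.3 in other tumors, and 2 of the 4 FS were above all others. *SALL3* and *SALL4* were too low to be tested, although *SALL3* reached 28.0 CPM in S1-11. In the list of transcription factors that act with SALL1 in the embryonic kidney, such as EYA1 and OSR1, 0 of 6 genes tested passed with edgeR (1 at an unadjusted p under 0.05; DESeq2 called 3 of all 15), and *TBX18* had the highest mean level, with a log2 fold change of -0.02 (SE 0.88). In the NuRD complex, 0 of the 14 genes tested besides *CDK2AP1* passed with edgeR (2 at an unadjusted p under 0.05; 0 called by DESeq2), with a median log2 fold change of 0.10, and *CHD3*, the one with the highest mean level, was at -0.41 (SE 0.30).

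Around CDK2, the partner from which *CDK2AP1* takes its name, 4 of 10 genes tested were higher in FS. They were *CCNA2*, which encodes cyclin A2 (1.89, SE 0.47), the phosphatase gene *CDC25A* (1.63, SE 0.42), *E2F1*, a transcription factor of S phase entry (1.42, SE 0.38), and *CDK2* itself (1.02, SE 0.28). *CDK2* was at 9.03 to 16.2 CPM in FS and at 4.35 to 8.88 in the other tumors. These 4 genes belong to the cell cycle, like the proliferation markers that were also higher in FS.

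Among the kinases related to *MAST2*, 0 of 5 genes tested rose. *MAST1* fell, with 5.42 to 9.17 CPM in FS against 13.4 to 66.2 in the other tumors (log2 fold change -2.35, SE 0.47, adjusted p = 0.00403 from edgeR). The ranges of *MAST1* and *MAST2* were thus apart in opposite directions. Of 13 tested genes of microtubule crosslinking and cell polarity, *MARK1* (2.45, SE 0.44), a kinase of the PAR-1 family, and *SOGA1* (1.08, SE 0.27; 0.99 and no longer past the threshold of 1 with the prefix as a term), a relative of *MTCL1*, rose, while *PARD6B*, a polarity scaffold, fell by 2.53 (SE 0.72). *MARK1* was at 16.2 to 37.9 CPM in FS and at most 9.61 in any other tumor.

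In the list of the GALNT family, which also held *C1GALT1* and *C1GALT1C1* from outside the family, 12 genes besides *GALNT5* were tested. *GALNT7* rose by 2.69 on the log2 scale (SE 0.45, adjusted p = 0.00119 from edgeR), from 9.03 to 13.0 CPM in FS against up to 5.53 elsewhere. *GALNT15* fell by 2.96 (SE 0.72), with 1.86 to 56.0 CPM in FS and 69.4 to 764 in the other tumors. No other gene of the list passed.

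Of the adhesion genes around *CADM1*, 3 of 10 tested were higher in FS and 0 lower. *MPP6*, a membrane scaffold gene of the MAGUK family, differed by 2.88 (SE 0.54), *PVR*, a nectin-like receptor gene, by 1.59 (SE 0.44) and *NECTIN3* by 1.40 (SE 0.37). *NECTIN3* was at 12.6 to 20.5 CPM in all FS and at most 11.8 in other tumors, while *PVR* reached 71.9 CPM in another tumor, above 3 of the 4 FS.

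For the pathway of the receptor *S1PR3*, 0 of the 15 tested genes of sphingosine-1-phosphate synthesis, transport and signaling passed with edgeR, 2 had an unadjusted p under 0.05 and DESeq2 called 0. With the prefix as a term, *SGPP1*, a sphingosine-1-phosphate phosphatase gene, was called higher (1.66, adjusted p = 0.0209 from edgeR, against 1.34 and 0.119 without the term), as it was without S2-11. Their median log2 fold change was 0.34, and *ROCK2*, the gene with the highest mean level, was at -0.12 (SE 0.23). In the list around *STK39*, 0 of 12 rose and 1 fell, *SLC12A5*, a neuronal potassium chloride cotransporter (log2 fold change -2.52, SE 0.53, adjusted p = 0.00549 from edgeR). The POU and neurotrophic factor lists left 1 and 3 genes to test, of which 0 passed with edgeR, also at an unadjusted p under 0.05, while DESeq2, which tested more of them, called 1 POU gene and 2 neurotrophic factor genes. Here *POU2F1* was at 0.33 (SE 0.24) and *MANF* at -0.33 (SE 0.26).

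Profiles over all 16 tumors were compared as z-scores of log2(CPM + 0.5), by their root mean square difference, in which FS values take part. The genes nearest to the mean profile of the 10 were *MAPKAPK2* (0.34), *TRIM24* (0.36), *KDELR3* (0.36), *ADAMTS3* (0.39) and *GNAS* (0.39). *MTCL1* was the closest of the 10 to their mean (0.33) and *S1PR3* the farthest (0.54). *SALL1* and *MAST2* were each the nearest gene to the other (0.42), although *MAST2* was present in all tumors and *SALL1* nearly absent outside FS.

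For the other genes, the nearest profile was *SPR* for *GALNT5* (0.27), *SLC2A1* for *MTCL1* (0.28), *ARID1B* for *STK39* (0.29), *FKBP10* for *POU6F1* (0.32), *ADAMTS7* for *CADM1* (0.34), *EBF4* for *CDK2AP1* (0.35), *SHC3* for *S1PR3* (0.43) and *SLC39A6* for *NDNF* (0.46). *SLC2A1*, a glucose transporter gene, was lowest among FS in S1-12 (18.1 CPM), as was *MTCL1*. *ADAMTS7*, a matrix protease gene, shared the split of *CADM1*, with 43.2 and 54.2 CPM in S1-02 and S1-12 and 25.3 and 13.5 in S1-11 and S2-06. Both genes were picked for near profiles over the same tumors, FS included, so such likeness among FS is favored by the choice.

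The annotated genes next to each of the 10 on its chromosome, 3 on either side, were taken from RefSeq's order on the assembly UU_Cfam_GSD_1.0, which is not the build the reads were aligned to. Of 60 neighbors, 39 were tested, 3 were higher in FS and 1 lower (beside 5.78% and 3.68% of all genes tested), with a median log2 fold change of 0.29. These shares are near those of all genes. *NOD2* (2.07, SE 0.47) and *RBL2* (-1.02, SE 0.27) lay near *SALL1*, and *LOC100856339* (1.58, SE 0.44) near *MAST2*. *NOD2* did not follow *SALL1* among FS, with 53.0 CPM in S2-06, where *SALL1* was at 10.7, and 8.63 in S1-11, where *SALL1* was highest.

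The third was *SHC3*, an adaptor gene and a neighbor of *S1PR3* (log2 fold change 3.31, SE 0.53, adjusted p = 0.000878 from edgeR). *SHC3* was at 3.51 CPM in S1-02, 20.5 in S1-11, 28.9 in S1-12 and 4.65 in S2-06, and its highest level elsewhere was 4.13 CPM in S2-04. The order of the 4 FS was that of *S1PR3*, and S2-04 was the highest of the other 12 tumors in both genes. *SHC3* had 3 counts in S2-04, and whether reads of 1 gene were counted for the other was not tested.

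**Figure D4:**
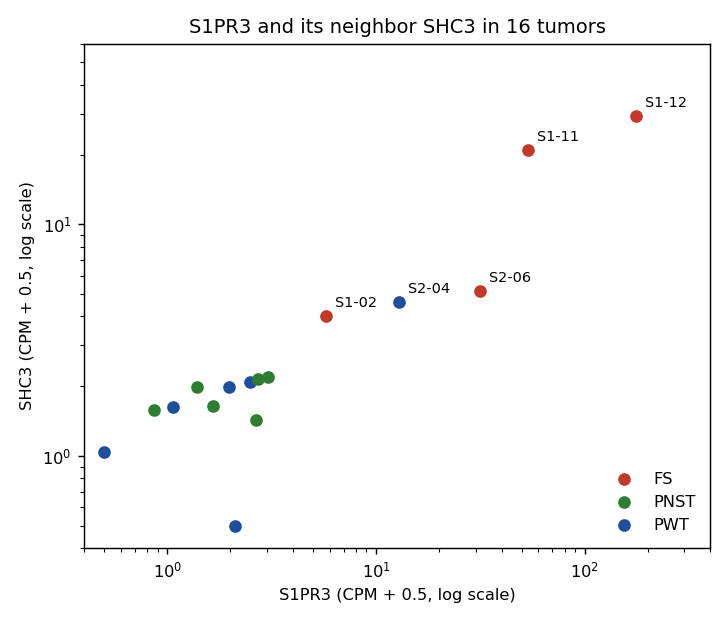
Level of *S1PR3* (x axis) and of its neighbor *SHC3* (y axis), both as CPM + 0.5 on log scales, in 16 tumors colored by type. S1-12 and S1-11 lie highest in both genes, and the PWT S2-04 lies between the FS S1-02 and S2-06.

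The same annotation has a long noncoding RNA gene that overlaps *CADM1*, *LOC111095826*, which was also higher in FS (log2 fold change 2.51, SE 0.46, adjusted p = 0.00220 from edgeR). It was at 7.73 CPM in S1-02, 6.47 in S1-11, 18.1 in S1-12 and 6.97 in S2-06, and at most 4.60 CPM elsewhere. Whether reads were counted by strand is not given in the sources used here, so reads of both genes cannot be told apart with certainty.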

How the data were processed

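The authors aligned reads from an Ion Proton sequencer to the canine genome build ROS-canfam-01 with STAR2 and deposited counts per gene from htseq-count, without normalization; counting by strand is not given in the sources used here. Of the reads listed, 22.9% to 30.6% per tumor fell on genes, and entries naming no gene were left out. Runs of a tumor were summed (3 per S1 tumor, 1 per S2 tumor). CPM were counts scaled to 1000000 of a tumor's total on genes, after TMM. The 15408 genes that reached 10 counts in 4 or more tumors were fitted with edgeR 4.0.16 (R 4.3.3, quasi-likelihood test, Benjamini-Hochberg adjustment). For FS against the other tumors, the groups of the fit were FS and all other tumors pooled. For PNST against PWT, the fit held all 3 types as groups. Genes were called at an adjusted p under 0.05 where the log2 fold change was beyond 1 in size. SE was the absolute log2 fold change over the square root of F. The study's tool, DESeq2 (1.42.0), was an alternative.

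Co-variation p-values were two-sided, from 100000 permutations, adjusted over 45 pairs for each coefficient, with a pseudocount of 0.5 CPM. The 10 genes and all gene lists were chosen with earlier results of these data known. Besides the 10, the text names up to 4 called genes of each list with the smallest p, or else the gene with the highest mean CPM, the nearest profiles and called neighbors; *SALL3* and the marker genes were named after their values were seen. In simulated counts with these depths, over 15408 genes, 10% of 2-fold and 59% of 4-fold changes were recovered for FS against the other tumors, and 11% and 65% for PNST against PWT. Here a change was recovered at an adjusted p under 0.05 alone, without the threshold on the log2 fold change that calls also had to pass. The p-values measure the spread between these tumors. Intervals cover counting error only.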

Additional observations from a re-analysis of the deposited data

Results flagged for a closer look

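Each of the 10 genes was examined for a tumor far from the others in each of the 3 types, 30 groups in all, of which chance would single out about 1 in 20. In 4 groups, all PWT, the gap between the highest tumor and the next was a large share of the range of the 6 tumors (Dixon's test, above its 95% critical value). *CDK2AP1* was at 12.7 CPM in S2-03 and at 1.38 to 4.84 in the other 5 PWT. *STK39* was at 14.6 CPM in S2-03 and at 0.539 to 5.51 in the others. *NDNF* was at 1.98 CPM (5 counts) in S2-03 and had 0 counts in the others, where any count above 0 would stand apart in this way. S2-03 was the PWT with 1386 CPM of keratinocyte markers, against 5.51 to 22.0 in the other PWT, and the part of these cells was not tested. *S1PR3* was at 12.4 CPM in S2-04, from 9 counts, and at 0 to 1.98 in the other PWT, and the keratinocyte markers of S2-04 summed to 5.51 CPM.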

How the results depend on the processing

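No paired analysis was possible because replicate numbers were given in accession order and mark no shared animal or day. Single tumors moved many counts, and histology groups and DESeq2 moved some of them beyond the range seen with single tumors left out. Leaving out each tumor in turn, the genes higher in FS numbered 549 (without S1-11) to 970 and those lower 362 (without S1-11) to 613, partner genes higher in FS 4 to 12 and lower 3 to 4, genes higher in PNST than in PWT 0 to 61 and lower 0 to 165, and genes of the 10 with all FS above all others 8 to 10, while the median SD among FS was 0.432 to 0.559. With histology groups, 191 genes were higher and 14 lower in FS, 1 partner gene higher and 0 lower, 0 of the 10 genes set apart, and 0 genes higher or lower in PNST. DESeq2 called 176 genes higher and 341 lower in PNST, and a prefix term, or S1-04 and S1-05 summed, 0 and 0. With no count filter, 1383 genes were higher in FS and 17 partner genes. Without the 5 tumors with keratinocyte transcripts (chosen after seeing the data), 352 genes were lower in FS, 0 higher and 1 lower in PNST than in PWT, and 0 pairs passed; with type means removed, or S1-04 and S1-05 summed, 1 pair did. The cause was not tested, apart from the fewer tumors in some settings.

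*CDK2AP1*, at 0.03 for PNST against PWT, ranged from -0.20 to 0.67 over single tumors left out, and was at -0.018 with a prefix term, -0.14 with S1-04 and S1-05 summed, -0.20 without S1-04, -0.17 without S1-05, -0.07 without S1-07, -0.10 without S2-04, -0.13 without S2-08 and -0.0046 without S2-11, and *S1PR3* (at most 9 counts in these tumors), at -0.87 (without S2-08) to 0.45, was above 0 only without S2-04. None of the 9 tested genes of the 10 changed sign in FS against the others. The genes were chosen on this contrast, so nothing is read from their kept signs. *SALL1* and *S1PR3* could not be fitted with an FS left out, since both then fell below the count filter. Depth limits the low values, since sampling every tumor to 507728 counts moved the SD among FS to 1.03 for *SALL1*, 3.45 for *NDNF* and 3.63 for *S1PR3*.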
